A study of Mus musculus with 12 samples.

Results

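The genes described here are 40 components of the lysosomal acid pump and of the nutrient signalling machinery that docks on it, listed by gene symbol: subunits of the V-ATPase, the Ragulator and Rag GTPase proteins, the folliculin complex, the MiT/TFE transcription factors, mTORC1 with its regulators, and 2 lysosomal sensors. All 40 were found among the 55291 gene symbols of the deposited table, and all 40 were among the 19633 genes tested. By the measure used here all 40 had reads in all 12 mice. A mouse was counted as having reads unless it shared the lowest value of a gene with another mouse of its sorting batch. A single mouse without reads in a batch would therefore go unseen. No measured value enters the list of symbols, but the list was drawn up with earlier results of the comparison between ozone and filtered air known, and Gpr155 is the first row of the deposited table. The differences below are therefore a description of these genes, and the calls and p-values support no statement about the list.

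The samples are polyadenylated RNA of flow-sorted alveolar macrophages, phagocytes that live on the air side of the lung, from female C57BL/6NJ mice aged 8 to 11 weeks. The ozone group held 6 mice that breathed 0.8 ppm ozone, and the filtered-air group held 6 mice that breathed filtered air, in both cases for 4 h on each of 4 days, with lungs taken 3 days later. Each sample has a mouse ID of its own in the labels. The title of the series places the comparison in the state of pulmonary tolerance to ozone. Sorting was done in 2 batches with 3 mice of each group in each.

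Lysosomes are acidified by the V-ATPase, a rotary proton pump whose membrane-embedded V0 sector is driven by the ATP-hydrolysing V1 sector. The pump and the Ragulator scaffold hold the Rag GTPases on the lysosomal surface. When nutrients are plentiful the Rags recruit the kinase complex mTORC1, which Rheb then activates, and the TSC complex restrains Rheb. Folliculin with its FNIP partners acts on RagC and RagD and thereby lets mTORC1 hold TFEB and TFE3 in the cytoplasm. When released, these MiT/TFE factors enter the nucleus and bind a CACGTG-centred element, often extended to TCACGTGA or GTCACGTG, near genes of lysosomes and autophagy. Alveolar macrophages depend on this organelle to break down surfactant lipid, dead cells and inhaled particles.

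Promoters of the listed genes were searched for the DNA element of the MiT/TFE factors, and sequences that hold its core are shown first. Promoters were taken from RefSeq on GRCm38.p6, from 250 bases before to 50 bases after a transcription start, and 33 of the 40 genes had at least 1. The core CACGTG was found in the promoters of 10 of the 33 genes, or 30.3%, against 8.09% of the 27025 genes with a promoter of this length. The core reads the same on both strands. TCACGTGA, which also reads the same on both strands, was found in 3 of 33, or 9.09%, against 1.12%. GTCACGTG on either strand was found in 4 of 33, or 12.1%, against 2.55%. The palindrome that carries both extensions of the last form was found in 0 of 33 and in 0.37% of all genes with a promoter. These longer forms contain the core and can overlap each other. All 3 promoters with TCACGTGA belonged to the V-ATPase, in Atp6v0d1, Atp6v0e and Atp6v1a. The 4 with GTCACGTG on either strand were those of Atp6v0b, Atp6v0d1, Rheb and Rragb. A match is a string of letters in a window, not a measured site, and V-ATPase genes are among those in which the element was first described. The 10 genes with the core had a median ozone minus filtered-air difference of 0.0057 on the log2 scale described below and 0 were called, and the 23 with a promoter but no core had a median of 0.010, with Gpr155 the 1 called.

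The windows below show 1 match for each of the 8 genes in which it had at most 3 bases of GENCODE M21 exon within 40 bases; those of Atp6v0e and Rheb are exonic and are not printed. They run from 5′ to 3′ on the strand of the gene, with the core of that match and any matching extension in capitals. The window of Lamtor4 also holds another copy of the core, left in lower case.
Atp6v0b, chr4:117887343-117887382, minus strand, core beginning 36 bases before the start: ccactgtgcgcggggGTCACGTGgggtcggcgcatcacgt
Atp6v0d1, chr8:105566045-105566084, minus strand, 3 bases before the start: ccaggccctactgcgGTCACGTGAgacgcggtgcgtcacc
Atp6v1a, chr16:44139368-44139407, minus strand, 131 bases before the start: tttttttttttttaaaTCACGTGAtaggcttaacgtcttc
Lamtor1, chr7:101905752-101905791, plus strand, 68 bases before the start: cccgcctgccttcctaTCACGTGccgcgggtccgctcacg
Lamtor4, chr5:138255361-138255400, plus strand, 104 bases before the start: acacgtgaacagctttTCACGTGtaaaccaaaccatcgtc
Rragb, chrX:153139905-153139944, plus strand, 36 bases before the start: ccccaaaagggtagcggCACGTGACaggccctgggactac
Rragc, chr4:123917304-123917343, plus strand, 112 bases before the start: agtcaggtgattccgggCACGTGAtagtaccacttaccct
Fnip1, chr11:54438087-54438126, plus strand, 75 bases before the start: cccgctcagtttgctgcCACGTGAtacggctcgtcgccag
The windows of Atp6v1a and Rragb lie inside the extent that RefSeq gives the gene, and outside the exons of GENCODE M21. The core occurred more than once in the promoters of 3 genes, Atp6v0b, Lamtor4 and Rragb. The promoters of Tfeb, Tfe3, Mitf, Flcn, Fnip2 and Gpr155 held 0 copies. For Gpr155, the gene with the greatest difference in this list, the 158 bases that precede its annotated exons at chr2:73386573-73386730, on the minus strand, are given without capitals because the core is absent.
Gpr155: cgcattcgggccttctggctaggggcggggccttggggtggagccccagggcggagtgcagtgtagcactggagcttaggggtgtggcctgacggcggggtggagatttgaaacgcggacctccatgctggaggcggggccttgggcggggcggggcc

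The deposited expression values are variance-stabilized, on a log2 scale, and centred so that filtered-air mice average 0 for each gene. A value therefore shows how far a mouse lies from that mean, the level of a gene is not kept, and levels cannot be compared between genes. The scale compresses differences of genes with few reads, so they are not fold changes and may understate them. Of the 40 genes, 1 was called by limma at an adjusted p under 0.05 over all genes tested, which is Gpr155, and 39 were not. Over all genes tested 4.25% were called, 2.41% higher and 1.84% lower. The 6 ozone values and the 6 filtered-air values did not overlap in 2 of the 40 genes, Gpr155 and Flcn, against 3.53% of all genes. An unadjusted p under 0.05 was found in 9 of the 40, or 22.5%, against 16.7% of all genes. The median difference, ozone minus filtered air, was 0.0082 over the 40 genes and -0.0033 over all genes tested, and the median absolute difference was 0.047 and 0.046.

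**Figure D1:**
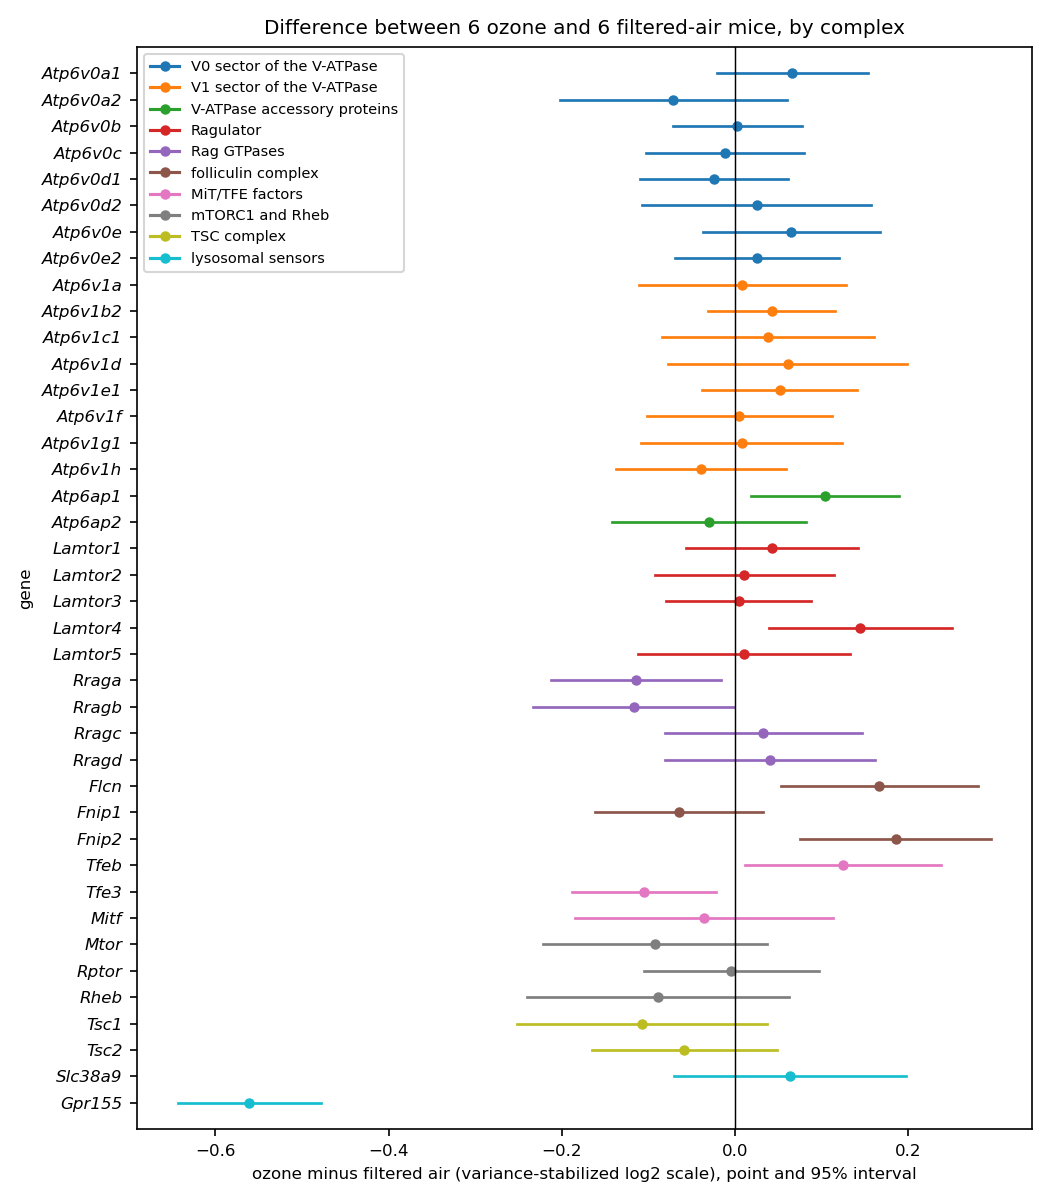
Difference between 6 ozone and 6 filtered-air mice for each of the 40 genes on the variance-stabilized log2 scale (x axis), with the point estimate and limma's 95% interval, coloured by complex. Gpr155 lies at -0.56, and the other 39 genes lie between -0.12 and 0.19.

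Gpr155 was lower in every ozone mouse than in every filtered-air mouse. It encodes a multi-pass protein of the lysosomal membrane, also called LYCHOS, that binds cholesterol and signals its presence to mTORC1 through GATOR1. The gene lies at chr2:73341506-73386521. The ozone mice ranged from -0.61 to -0.52 with a median of -0.56, and the filtered-air mice from -0.084 to 0.073 with a median of 0.0084. The ozone mean was -0.56 ± 0.032 (SD, n = 6), and the SD of the 6 filtered-air mice around their mean of 0 was 0.069. This is a difference of -0.56 (95% interval -0.64 to -0.48). The difference was -0.54 in flow-sort batch 1 and -0.58 in batch 2, and it ranged from -0.58 to -0.54 when single mice were left out. After quantile normalization it was -0.46, outside the interval above. With a variance trend its SE was 0.097 in place of 0.039. That trend runs over the mean value of a gene, which in this centred table follows its difference and not its level. The spread among ozone mice was the smallest of the 40 genes. Because this gene was singled out with its difference known, no p-value is given for it. In sorted bulk RNA, fewer cells with the transcript and less of it per cell cannot be told apart.

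Slc38a9 encodes the other sensor, a lysosomal transporter that reports arginine to the Rag GTPases. Its ozone mice ranged from -0.097 to 0.17 (median 0.051) and its filtered-air mice from -0.12 to 0.20 (median -0.040), so the groups overlapped throughout. Its difference was 0.064 (95% interval -0.070 to 0.20; limma adjusted p = 0.692).

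**Figure D2:**
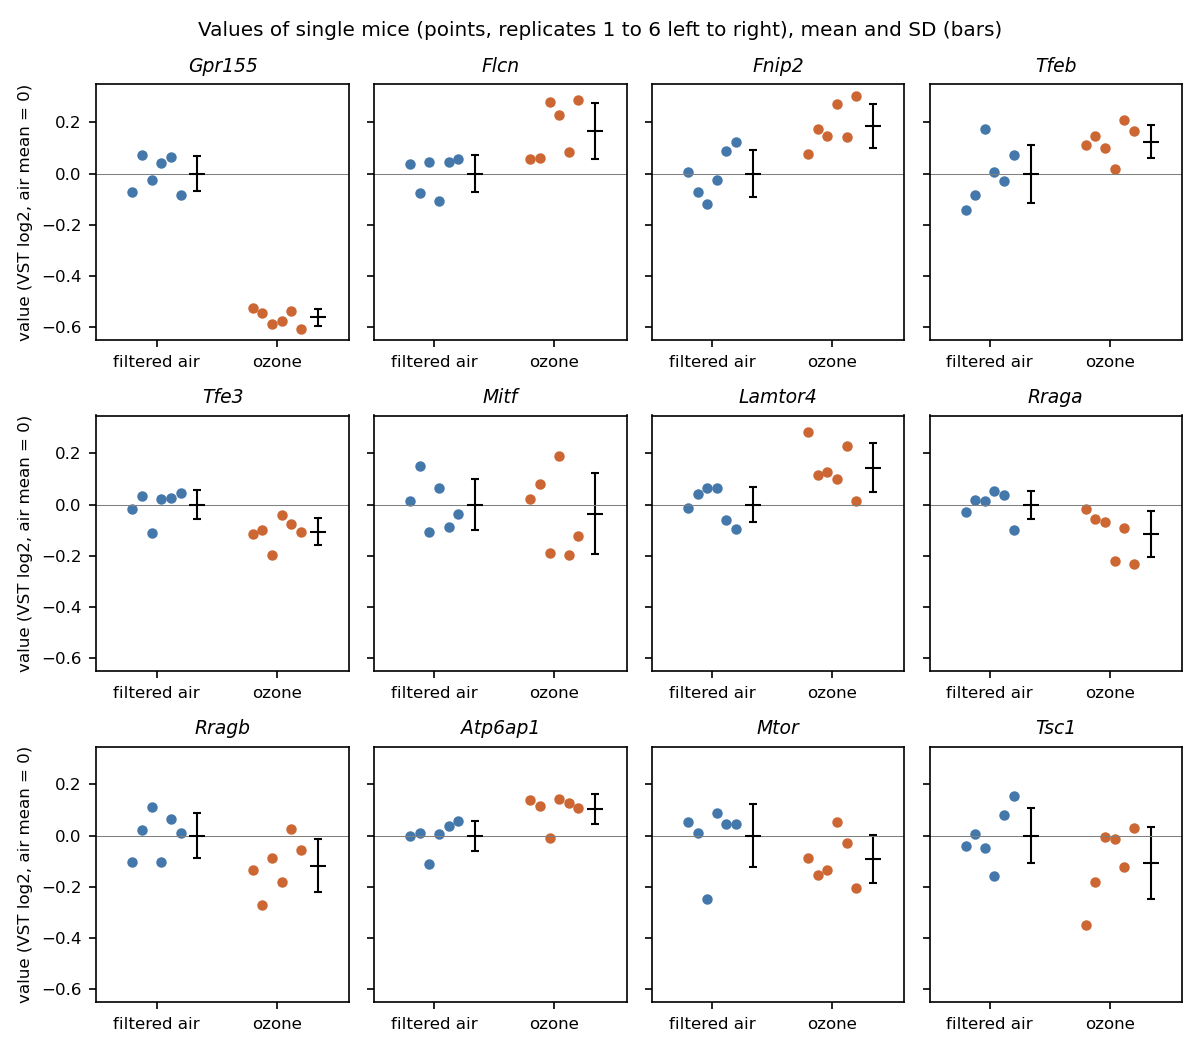
Values of single mice (points) on the variance-stabilized log2 scale, with the mean and SD of each group of 6 (bars), for 12 of the genes. Gpr155 separates the groups by more than the spread of either, Flcn separates them narrowly, and the other 10 genes overlap.

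The folliculin complex held the next greatest differences. Fnip2, a partner that tethers folliculin to the Rags, lies at chr3:79455971-79568151. Its ozone mice ranged from 0.078 to 0.30 (median 0.16) and its filtered-air mice from -0.12 to 0.12 (median -0.0098). Ozone mouse 1 was the lowest of its group and lay below filtered-air mice 5 and 6, and the other 5 ozone mice lay above every filtered-air mouse. The difference was 0.19 (SE 0.051, 95% interval 0.076 to 0.30) and fell just short of the threshold in limma (adjusted p = 0.0589). The call depended on the fit, with adjusted p-values from 0.0149 to 0.589 over the alternatives. Fnip2 passed with the replicate number as a block (adjusted p = 0.0436), without the batch covariate (0.0365), without ozone mouse 1 (0.0421), without filtered-air mouse 6 (0.0322) and after removal of the trend over transcript length and GC content (0.0149).

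Flcn, which encodes folliculin itself, lies at chr11:59791408-59810039. The ozone mice ranged from 0.059 to 0.29 (median 0.16) and the filtered-air mice from -0.11 to 0.057 (median 0.041). The groups did not overlap, but the lowest ozone mice, 1 and 2, at 0.059 and 0.062, lay just above filtered-air mouse 6, at 0.057, while ozone mice 3, 4 and 6 lay between 0.23 and 0.29. The difference was 0.17 (SE 0.053, 95% interval 0.053 to 0.28) and was not called in limma (adjusted p = 0.103). It was 0.083 in batch 1 and 0.25 in batch 2. Fnip1, the paralogous partner of folliculin, had a difference of -0.064 (95% interval -0.16 to 0.033), opposite in sign to Fnip2, with overlapping groups.

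The MiT/TFE factors, which act below folliculin, differed in sign among themselves, and none was called. Tfeb is the best known regulator of lysosome formation. Its ozone mice ranged from 0.018 to 0.21 (median 0.13) and its filtered-air mice from -0.14 to 0.17 (median -0.011). Filtered-air mice 3 and 6, at 0.17 and 0.074, were within the range of the ozone mice, whereas the 6 ozone mice all lay above 0. The difference was 0.13 (SE 0.053, 95% interval 0.012 to 0.24; limma adjusted p = 0.240), with 0.12 in batch 1 and 0.13 in batch 2.

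Tfe3, a factor that shares targets with TFEB in macrophages, pointed the other way. The ozone mice ranged from -0.20 to -0.039 (median -0.10) and the filtered-air mice from -0.11 to 0.046 (median 0.024). Filtered-air mouse 3, at -0.11, was the sole filtered-air mouse inside the ozone range. The difference was -0.11 (SE 0.039, 95% interval -0.19 to -0.022; limma adjusted p = 0.169), with -0.038 in batch 1 and -0.17 in batch 2. Mitf, the family member best known from melanocytes and osteoclasts, had the greatest SD among ozone mice of the 40 genes, 0.158. Its ozone mice ranged from -0.20 to 0.19 (median -0.050), against -0.11 to 0.15 (median -0.010) in filtered air. Its difference was -0.036 (95% interval -0.19 to 0.11; limma adjusted p = 0.865), and it had opposite signs in batch 1 (0.085) and batch 2 (-0.16).

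No V-ATPase gene was called. Of the 18, 0 passed in limma, where 4.25% of all genes tested did. Of their differences 13 were above 0, a sign found in 48% of all genes, and 5 below, and the median was 0.017. The sector medians were 0.020 (V0) and 0.030 (V1) in batch 1 alone, and -0.0043 and -0.0066 in batch 2 alone. An unadjusted limma p under 0.05 was found for 1 of the 18, Atp6ap1, against 16.7% of all genes. Over the 18 genes the 95% intervals together spanned -0.20 to 0.20, so a shift as great as that of Gpr155 lies outside the interval of each subunit. The mean of the 18 genes was 0.018 ± 0.060 (SD, n = 6) in ozone mice and 0 ± 0.039 (SD, n = 6) in filtered-air mice. Ozone mouse 1, at 0.10, and ozone mouse 6, at -0.088, lay further out on either side than any filtered-air mouse, and the filtered-air mice ranged from -0.050 to 0.057. Without ozone mouse 1 the median difference was -0.0084 in the V0 sector and 0.00039 in the V1 sector, against 0.014 and 0.023 with all mice, and without ozone mouse 6 it was 0.050 in the V1 sector.

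In the V0 sector the 8 differences lay between -0.071 and 0.066. The a subunits couple proton flow to rotation and steer the pump to particular membranes. Atp6v0a1 had a difference of 0.066 (95% interval -0.021 to 0.15). Atp6v0a2 had the greatest absolute difference of the sector, -0.071 (95% interval -0.20 to 0.060; limma adjusted p = 0.645), with ozone mice from -0.23 to 0.061 (median -0.033) and filtered-air mice from -0.19 to 0.14 (median 0.030). The groups overlapped over most of their range, and the difference was -0.11 without filtered-air mouse 3 and -0.036 without ozone mouse 6. Among the proton-carrying ring and its neighbours, Atp6v0b differed by 0.0028 and Atp6v0c by -0.012. Of the 50-base stretches in transcripts of Atp6v0c, 27.1% also occur in other genes, mostly in a processed copy, and the effect of this on its value was not tested. The d subunits form the stalk. Atp6v0d1, the form found in all tissues, differed by -0.024, and Atp6v0d2, the form typical of macrophages and osteoclasts, by 0.025. Atp6v0d2 varied more between mice than Atp6v0d1, from -0.22 in ozone mouse 6 to 0.20 in ozone mouse 1. The small e subunits differed by 0.065 (Atp6v0e) and 0.025 (Atp6v0e2).

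In the V1 sector 7 of the 8 differences were above 0, a sign found in 48% of all genes, and all 8 lay between -0.039 and 0.061. In batch 2 alone Atp6v1a, Atp6v1c1, Atp6v1e1 and Atp6v1f joined Atp6v1h below 0, and in batch 1 alone Atp6v1g1 did. Atp6v1a, the catalytic A subunit, differed by 0.0085, and Atp6v1b2, the B subunit that binds nucleotide without being catalytic, by 0.042. Atp6v1b2 had the narrowest 95% interval of the sector, -0.031 to 0.12. The rotor subunit Atp6v1d had the greatest difference, 0.061 (95% interval -0.077 to 0.20; limma adjusted p = 0.719), with ozone mice from -0.14 to 0.26 (median 0.076) and filtered-air mice from -0.12 to 0.10 (median 0.0089). Ozone mouse 1 was the high value and ozone mouse 6 the low one, and the groups overlapped. The difference was 0.017 without ozone mouse 1 and 0.11 without ozone mouse 6. The stator and stalk subunits Atp6v1c1, Atp6v1e1, Atp6v1f and Atp6v1g1 differed by 0.038, 0.052, 0.0050 and 0.0078. Atp6v1h, which governs coupling of the sectors, differed by -0.039. Of the 50-base stretches of Atp6v1f 11.2% and of Atp6v1g1 19.2% also occur in other genes.

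The accessory proteins help the pump to assemble and travel. Atp6ap1 was the V-ATPase gene with the greatest difference, 0.10 (SE 0.040, 95% interval 0.018 to 0.19; limma adjusted p = 0.188). Its ozone mice ranged from -0.0099 to 0.14 (median 0.12) and its filtered-air mice from -0.11 to 0.057 (median 0.0083). Of the ozone mice 5 lay above every filtered-air mouse, and ozone mouse 3 lay among them. Atp6ap2, known also as the prorenin receptor, differed by -0.030 with overlapping groups.

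All 5 Ragulator differences were above 0, a sign found in 48% of all genes, and 0 of the 5 were called. The signs did not hold within batches. Lamtor1, Lamtor3 and Lamtor5 lay below 0 in batch 2, at -0.0049, -0.075 and -0.0077, and Lamtor2 in batch 1, at -0.0092. The median of the 5 was 0.011, and it was 0.084 in batch 1, -0.0049 in batch 2, -0.00095 without filtered-air mouse 5 and 0.051 without ozone mouse 6. Lamtor4 stood apart from its partners. Its ozone mice ranged from 0.013 to 0.28 (median 0.12) and its filtered-air mice from -0.096 to 0.065 (median 0.014). Of the ozone mice 5 lay above every filtered-air mouse, and ozone mouse 6 lay among them. The difference was 0.14 (SE 0.049, 95% interval 0.039 to 0.25; limma adjusted p = 0.130), with 0.15 in batch 1 and 0.14 in batch 2. Lamtor1, the lipid-anchored subunit that wraps around the others, differed by 0.043 (95% interval -0.056 to 0.14). The remaining subunits, Lamtor2, Lamtor3 and Lamtor5, differed by 0.011, 0.0044 and 0.010. Between 14.5% and 15.1% of the 50-base stretches of Lamtor1, Lamtor3 and Lamtor5 also occur in other genes, against 0% for Lamtor4 (chr5:138255482-138259395) and Lamtor2.

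A functional Rag dimer pairs RagA or RagB with RagC or RagD. The differences split along that line, with both members of the first pair below 0 and both of the second above, and 0 of the 4 were called. In batch 2 alone Rragc lay below 0, at -0.041. Rraga had ozone mice from -0.23 to -0.019 (median -0.079) and filtered-air mice from -0.097 to 0.052 (median 0.017). Ozone mice 4 and 6 lay far below the rest, and filtered-air mice 1 and 6 were inside the ozone range. The difference was -0.11 (SE 0.046, 95% interval -0.21 to -0.017; limma adjusted p = 0.208). Rragb had ozone mice from -0.27 to 0.028 (median -0.11) and filtered-air mice from -0.10 to 0.11 (median 0.015), and the groups overlapped. Its difference was -0.12 (SE 0.054, 95% interval -0.23 to -0.00074; limma adjusted p = 0.296). RagA and RagB are near-identical proteins, yet the transcripts of Rraga shared 0% and those of Rragb 0.177% of their 50-base stretches with other genes. Rragc differed by 0.033 (95% interval -0.081 to 0.15) and Rragd by 0.041 (95% interval -0.081 to 0.16).

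The 5 listed genes of the kinase complex and its nearest regulators, Mtor, Rptor, Rheb, Tsc1 and Tsc2, lay below 0, as did 52% of all genes, and 0 of the 5 were called. Subunits outside the list lay on both sides of 0. Of mTORC1, Mlst8 was at -0.23 and called (given with its values below), Deptor was at -0.085 and Akt1s1 at 0.024, and Tbc1d7 of the TSC complex was at 0.055; the last 3 were not called. Mtor lay above 0 in batch 1 and Rptor, at 0.0097, in batch 2. Mtor, the kinase, had ozone mice from -0.20 to 0.053 (median -0.11) and filtered-air mice from -0.25 to 0.090 (median 0.046). Filtered-air mouse 3 was the lowest of all 12 mice and the other 5 filtered-air mice lay above 0. The difference was -0.092 (SE 0.060, 95% interval -0.22 to 0.036; limma adjusted p = 0.501), with 0.0060 in batch 1 and -0.19 in batch 2. Rptor, which encodes the raptor subunit that docks on the Rags, differed by -0.0043 (95% interval -0.11 to 0.097). Rheb, the activating GTPase, differed by -0.089, with wide and overlapping groups from -0.28 to 0.082 after ozone and from -0.18 to 0.15 in filtered air.

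Tsc1 and Tsc2 encode the complex that switches Rheb off. Tsc1 had ozone mice from -0.35 to 0.028 (median -0.067) and filtered-air mice from -0.16 to 0.16 (median -0.017). Ozone mouse 1 was the low value and the groups overlapped. The difference was -0.11 (SE 0.067, 95% interval -0.25 to 0.037; limma adjusted p = 0.480), and it was -0.054 without ozone mouse 1. Tsc2 differed by -0.058 (95% interval -0.17 to 0.048).

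**Figure D3:**
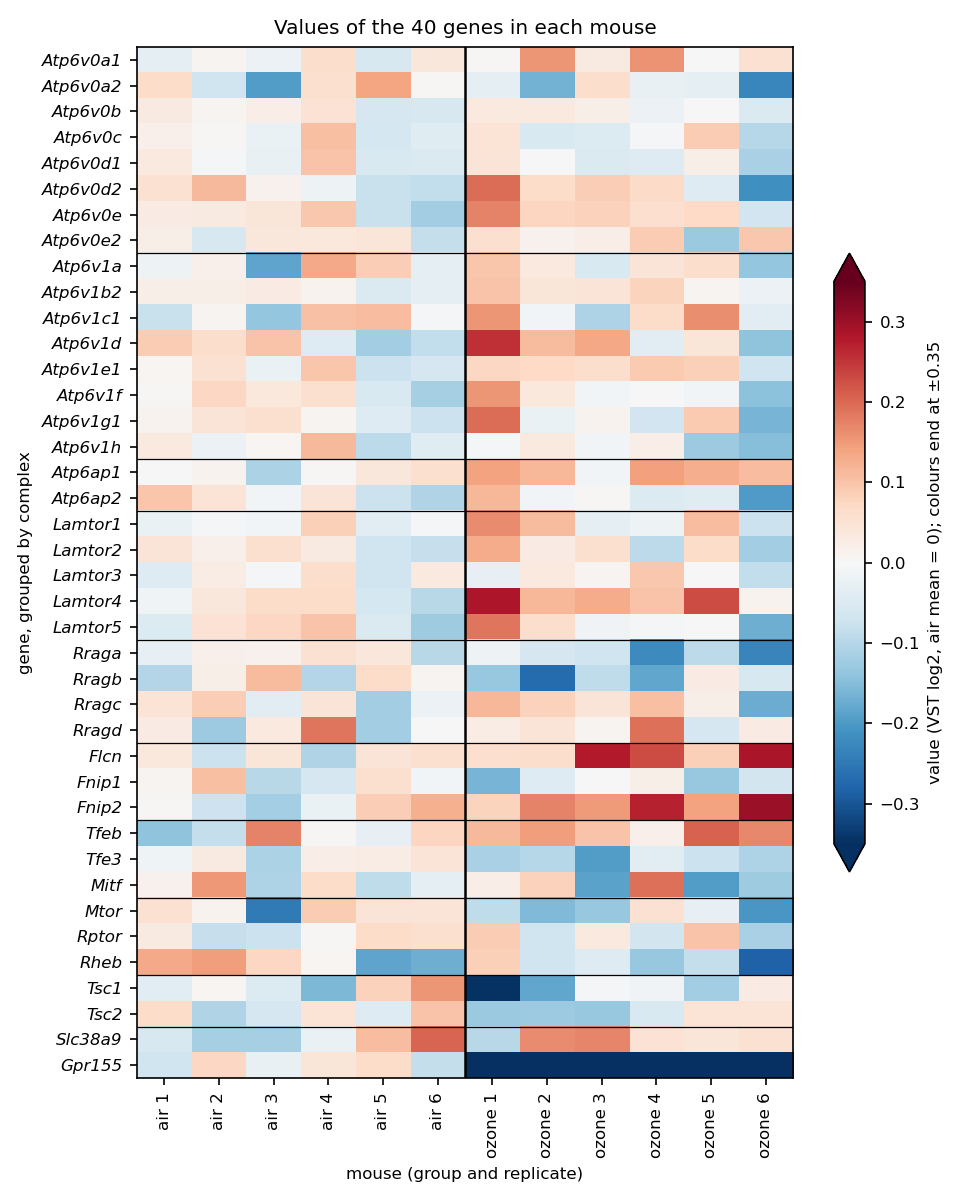
Values of the 40 genes (rows, grouped by complex) in each of the 12 mice (columns) on the deposited log2 scale, centred on filtered air, with colours ending at ±0.35. The row of Gpr155 separates the groups, and single columns such as ozone 1 and ozone 6 run through many V-ATPase and Ragulator rows.

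Variation between mice was also described within the groups. After the group and batch means were removed, the first principal component of the 39 genes other than Gpr155 held 45.9% of their variance. The first component of all genes tested held 24.0%, but a share over few genes and one over many cannot be set against each other. Weights of the same sign were held by 27 genes, led by Rheb, Atp6v1d, Atp6v0d2 and Lamtor5 and including all Ragulator genes and the V-ATPase genes except Atp6ap1, Atp6v0e2 and Atp6v0a1. The other 12, led by Tsc1, Fnip2, Slc38a9 and Flcn, had the opposite sign. In ozone mouse 1, 17 of the 18 V-ATPase genes lay above their group and batch mean. In ozone mouse 6, 16 of the 18 lay below it, and in filtered-air mouse 6, 15 of the 18. Filtered-air mouse 4, which had the lowest RNA integrity number of the series, 8.9, had 16 of the 18 above.

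In some mice the deviations of the 39 genes moved with transcript length, and in others they did not. Across the 39 genes, the Spearman correlation between the deviation in a mouse and the length of the longest transcript ranged from -0.65 in filtered-air mouse 3 to 0.64 in filtered-air mouse 6. It was -0.55 in ozone mouse 1, 0.57 in ozone mouse 4 and 0.35 in ozone mouse 6, but 0.0069 in ozone mouse 3, 0.090 in filtered-air mouse 1 and -0.15 in filtered-air mouse 4. The V-ATPase did not follow it in each mouse: filtered-air mouse 3 had 9 of its genes above the mean and 9 below, and ozone mouse 4 had 11 above and 7 below. Across all genes tested with a known length the same correlation lay between -0.19 and 0.17. Genes are not independent replicates, and the genes of a mouse share its library and depth. Ragulator subunits and small V1 subunits have short transcripts, such as Lamtor2 with 668 bases, whereas Tsc1, Mtor and Slc38a9 have transcripts of 7702, 8564 and 8910 bases. With the trend over length and GC content removed from each mouse, 2 of the 40 genes were called, Gpr155 and Fnip2, and all 40 kept the sign of their difference. In batch 1 alone 33 of the 40 kept it, in batch 2 alone 29, and without single mice 33 to 40.

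**Figure D4:**
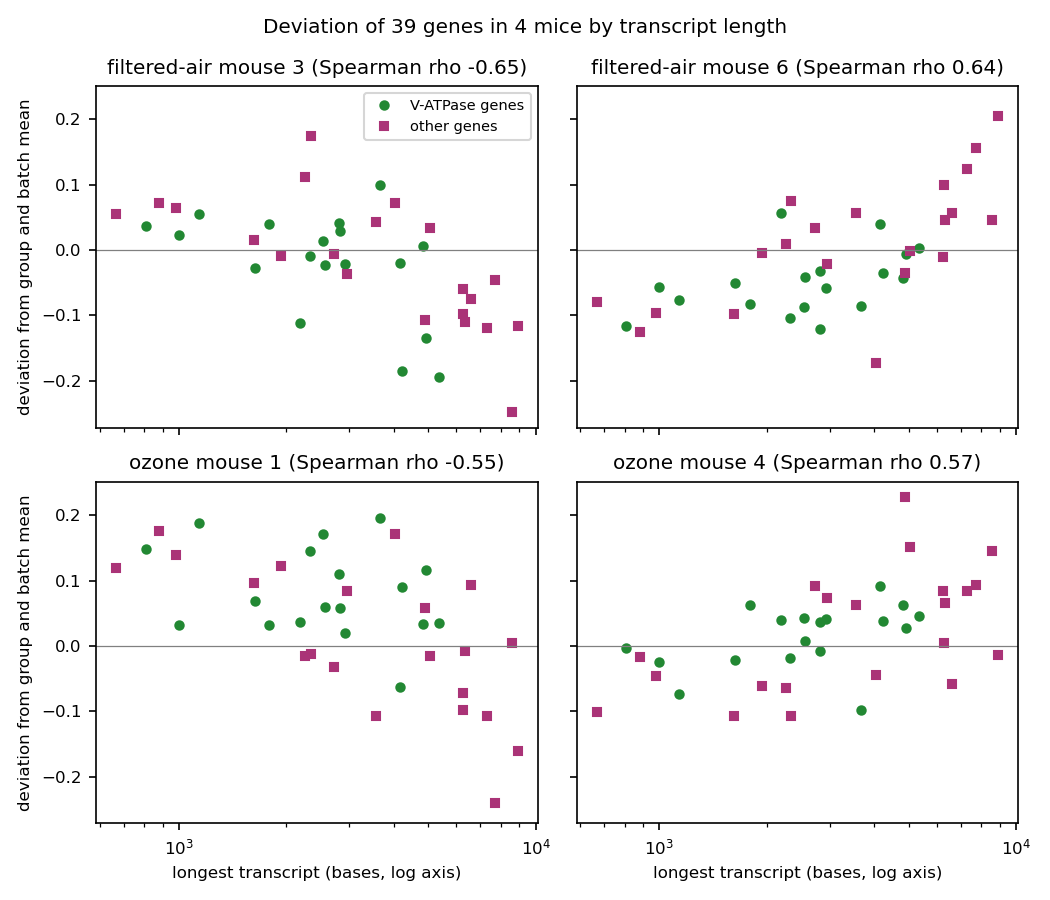
Deviation of 39 genes from their group and batch mean on the variance-stabilized log2 scale (y axis) against the length of the longest transcript in bases (x axis, log scale) in 4 mice. Short transcripts lie high and long ones low in filtered-air mouse 3 and ozone mouse 1, and the reverse holds in filtered-air mouse 6 and ozone mouse 4.

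Whether the ozone difference depended on the sorting batch is a question the choice of genes did not use. The interaction of ozone with flow-sort batch was called for 0 of the 40 genes by limma and for 0% of all genes tested. An unadjusted p under 0.05 was found for 1 of the 40, Lamtor3, against 2.6% of all genes, and its adjusted p was 0.9998. Lamtor3 differed by 0.084 in batch 1 and by -0.075 in batch 2.

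Genes of the same pathway outside the list were counted in the same fit, in which 4.25% of all genes tested were called. A count of 0 in lists as short as these is not far from that share. Of 16 further V-ATPase subunits and assembly factors tested, 0 were called, with a median difference of -0.0032; among them Tcirg1, the a3 subunit of lysosomes and osteoclasts, differed by 0.16 (SE 0.081, limma adjusted p = 0.331). Of 20 genes that sense amino acids upstream of the Rags (GATOR1, GATOR2, KICSTOR, sestrins and CASTORs), 0 were called, with a median of -0.018. Of 24 autophagy and lysosome genes known as MiT/TFE targets, 0 were called, with 12 above 0, 12 below and a median of -0.0017. The lysosomal membrane protein Lamp1 came nearest among them, at 0.15 (SE 0.041, limma adjusted p = 0.0534).

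The remaining pathway lists held 3 called genes, all lower, where 1.84% of all genes tested were called lower and 4.25% in either direction. Of 22 other parts of the mTOR complexes, growth factor inputs and mTORC1 substrates, 2 were called, both lower, with a median of -0.022. Mlst8, a subunit of both mTOR complexes, fell by 0.23 (SE 0.048, limma adjusted p = 0.0153), with ozone mice from -0.34 to -0.12 and filtered-air mice from -0.093 to 0.12. Prr5l, a partner of mTORC2, fell by 0.25 (SE 0.062, limma adjusted p = 0.0354), with ozone mice from -0.50 to -0.12 and filtered-air mice just above them, from -0.12 to 0.12. Of 18 lysosomal and plasma membrane carriers 1 was called, while 10 differences were above 0 and 8 below, with a median of 0.042. Spns1, a lysosomal lysophospholipid carrier, and Slc36a1, an amino acid carrier, differed by 0.27 and 0.21 and were not called (limma adjusted p = 0.0813 and 0.0880). Slc7a5, the leucine-carrying chain of the LAT1 transporter that feeds mTORC1, fell by 0.30 (SE 0.056, limma adjusted p = 0.00751), with ozone mice from -0.42 to -0.22 and filtered-air mice from -0.12 to 0.17. The groups did not overlap in these 3 genes. Quantile normalization ended the 3 calls, with adjusted p-values of 0.102, 0.125 and 0.0892 and differences of -0.18, -0.22 and -0.26 for Mlst8, Prr5l and Slc7a5. The calls were also lost in each batch alone, with fewer mice, where the differences were -0.24, -0.19 and -0.31 in batch 1 and -0.21, -0.31 and -0.29 in batch 2. The call of Prr5l was also lost with a variance trend (limma adjusted p = 0.0567), which has the limit given for Gpr155, and with the replicate block (0.0514). That call was lost too when any of 6 single mice was omitted, namely filtered-air mice 1, 2, 5 and 6 and ozone mice 2 and 4. Without both replicates 4 the calls of Mlst8 (0.0513) and Prr5l (0.0810) were lost, and without ozone mice 1 and 6 that of Prr5l (0.0996), each as an adjusted p.

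The sort could be checked only for the presence of reads, inferred from shared lowest values as described above, since levels are not kept. All 10 markers of resident alveolar macrophages had reads in 12 mice. Of these 10, 4 were called, Car4 and Siglec1 higher and Ear1 and Krt79 lower, where 4.25% of all genes tested were called. Reads in 12 mice were also found for the markers of monocytes, neutrophils, lymphocytes, dendritic, epithelial and endothelial or stromal cells, with the exception of Ly6g, Camp and Ngp of the neutrophil list. The means of these 6 lists overlapped between the groups, with ozone mice between -0.24 and 0.36 and filtered-air mice between -0.24 and 0.40. Of their genes 1 was called, beside the same 4.25% of all genes tested. It was Epcam, an epithelial adhesion molecule, which fell by 0.55 (SE 0.099, limma adjusted p = 0.00620), while the other 7 epithelial markers were not called. Its part in the results above was not tested. RNA integrity numbers lay between 9.2 and 9.7 after ozone and between 8.9 and 9.7 in filtered air.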

How the data were processed

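Expression was measured by RNA-seq in 12 samples, 1 per mouse. The kit was stranded and selected mRNA, per the labels' protocols. The authors deposited 1 table of variance-stabilized, batch-corrected values on a log2 scale, per the file's name. The submitters' processing notes name cutadapt, STAR 2.7.7a, Salmon 1.5.2, DESeq2 1.26.0, R 3.6.0, limma 3.42.2 and mm10, without roles; the annotation is not given in the sources used here. All 12 columns matched a sample title. Read totals are unknown.

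Genes were kept where at least 6 mice lay above the minimum that mice of a batch share, which left 19633. Differences were fitted with limma 3.58.1 in R 4.3.3 on group and flow-sort batch, without a variance trend, adjusted by the Benjamini-Hochberg method over all genes kept at a threshold of 0.05, and tested on simulated data. Intervals are limma's at 95%. Members and lists were chosen with earlier results of these data known. Values by mouse are given for called genes, for the gene with the greatest absolute difference in each complex and for Tfeb, Tfe3, Mitf, Mtor and Gpr155; Flcn and Rraga were added after their values were seen, as were Slc38a9, Rheb, Tcirg1, Lamp1, Spns1, Slc36a1, Akt1s1, Deptor and Tbc1d7 with fewer values. Transcript lengths and 50-base stretches come from GENCODE M21, and gene positions and promoters from RefSeq GRCm38.p6. Alternatives are described at the end.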

Additional observations from a re-analysis of the deposited data

Results flagged for a closer look

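By Dixon's ratio, the gap to the nearest mouse over the range of the group, a single mouse stood apart in 3 of 48 groups of 6 values, and chance alone gives about 2.4. Filtered-air mouse 3 stood out in Mtor, at -0.25, with the next filtered-air mouse at 0.011 (ratio 0.768); without it the difference in Mtor was -0.15. The same mouse stood out in Atp6ap1, at -0.11 (ratio 0.654). Its deviations had the most negative correlation with transcript length among the 12 mice. Mtor has a long transcript, of 8564 bases, but Atp6ap1 has a shorter one, of 2189 bases. The part of length in these values was not tested for Mtor or Atp6ap1 singly. Ozone mouse 3 stood out in Atp6ap1, at -0.0099, with the next ozone mouse at 0.11 (ratio 0.773); without it the difference was 0.13, and it was still not called.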

How the results depend on the processing

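The count of 1 called gene, Gpr155, became 2 with the addition of Fnip2 in the fit without the batch covariate and after removal of the length and GC trend, an alternative chosen after seeing the data, and 0 in flow-sort batch 2 alone, which uses fewer mice; it ranged from 1 to 2 without single mice. Gpr155 kept its direction in every setting run. Over all genes tested, 834 were called, against 171 after quantile normalization, 90 in batch 1 alone, 0 in batch 2 alone, 534 without both replicates 4, 460 without ozone mice 1 and 6 (also chosen after seeing the data) and 538 to 751 without single mice. More were called without the batch covariate (1152), after removal of the length and GC trend (911), among genes with reads in all 12 mice (870), with the replicate block (853) and with the median of each mouse subtracted (844). In batch 1 alone the medians moved to 0.084 for Ragulator, 0.083 for the folliculin complex, 0.085 for the MiT/TFE factors and -0.018 for mTORC1 with Rheb, and in batch 2 alone the MiT/TFE median was -0.16. Without single mice the MiT/TFE median ranged from -0.086 to 3.2e-05. Of the 40 members, 33 kept their sign in batch 1 alone, 29 in batch 2 alone and 33 to 40 without single mice. Among the named genes of the set, signs reversed without a call for Mtor (0.0060) and Mitf (0.085) in batch 1, and for Mitf without ozone mouse 5 (range -0.086 to 3.2e-05 without single mice). The cause was not tested. Over the values of the named genes under all alternatives, 413 kept direction and call, 21 lost the call, 5 gained it and 3 reversed. The interaction with batch gave 0 called members also without a filter on low values and in a robust fit. The promoter share was 9.09% for TCACGTGA and 30.3% for the shorter core, which the longer form contains.

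The same replicate numbers in both groups name different animals, so mice were not paired. Deviations of same-numbered mice correlated from -0.0026 to 0.28, over 0.1 in 4 of 6 pairs. Each mouse had 6 possible partners in the other group, and 6 of 12 mice correlated best with their own number. What the replicate number stands for was not tested. With the replicate block 2 members were called, Gpr155 and Fnip2. Levels and read depth of single genes are unknown, which limits what a missing call shows.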
